A study of Mus musculus with 6 samples.

Results

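The genes of the osteoclast were followed in bone marrow-derived macrophages (BMDMs), the cells from which osteoclasts can form. The set comprised 10 genes chosen by symbol for cell fusion, bone resorption and RANK signaling, namely Tnfrsf11a, Nfatc1, Calcr, Itgb3, Dcstamp, Ocstamp, Atp6v0d2, Acp5, Ctsk and Mmp9. All 10 were found among the 35192 genes of the deposited table whose values could be read. BMDMs were flushed from the femurs of C57BL/6 mice and cultured with macrophage colony-stimulating factor (M-CSF), and RNA sequencing was performed on 3 Ctrl libraries without treatment and 3 ZA libraries taken 12 h after stimulation with zoledronic acid (ZA). ZA is a nitrogen-containing bisphosphonate given to patients to restrain osteoclasts, and it blocks farnesyl diphosphate synthase in the mevalonate pathway. The sources used here give neither the ZA concentration behind these libraries, nor the age of the mice when the marrow was taken (female wild-type C57BL/6 mice were obtained for the study at 6 weeks of age), nor whether the 3 libraries of a group came from separate animals, so that the p-values measure the spread between these libraries, which may be technical. The described macrophage culture contained M-CSF and no RANK ligand. The cells are therefore a model of the precursor and not of the mature osteoclast.

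Osteoclasts arise from the monocyte and macrophage lineage when RANK ligand (RANKL) binds its receptor RANK in the presence of M-CSF. RANK recruits TRAF6, activates NF-κB and AP-1, and with immunoreceptor co-stimulation and calcium signals induces NFATc1, the transcription factor that directs the osteoclast program. The precursors then fuse into a multinucleated cell that attaches to bone through the αvβ3 integrin, acidifies the sealed space with the vacuolar ATPase and degrades the matrix with cathepsin K and metalloproteinases. Several of these genes are also transcribed in macrophages, which share lysosomal acidification and adhesion with the osteoclast.

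Expression was given as FPKM, fragments scaled by the length of the gene and by the total of the library, so that levels of different genes could be set side by side. The libraries held between 41230600 and 42155808 fragments. A level of 3 fragments was used as the floor of detection and corresponded to an FPKM between 0.00936 and 0.0460, depending on the gene and library. Such floors cover counting error only. All 10 macrophage markers exceeded a mean of 1 FPKM, with a summed level of 25241 to 29166 FPKM in Ctrl and 26157 to 29677 FPKM in ZA, most of it from Lyz2. Of these markers 9 had a higher mean in ZA, 5 of them without overlap (Adgre1, Csf1r, Cd68, Cd14 and Lamp1), and 0 were lower without overlap, where 11.4% of all genes tested were higher and 6.76% lower without overlap. Their part in the results was not tested. The markers of other cells were low beside this sum, but not all were low beside the osteoclast genes. In Ctrl the neutrophil marker S100a9 had a mean of 17.9 FPKM, above Acp5 at 15.9 FPKM. The stromal marker Col1a2, at 7.60 FPKM, lay not far below Nfatc1 at 9.62 FPKM. The 10 osteoblast and stromal markers summed to 10.4 to 19.4 FPKM in Ctrl and 9.19 to 14.4 FPKM in ZA, with the osteoblast genes Bglap and Ibsp at or under 3 fragments in every library. Col1a2, Col1a1 and Cxcl12 led them, with means of 7.60, 3.86 and 1.38 FPKM in Ctrl and 6.28, 3.24 and 0.843 FPKM in ZA, and of the 10 only Cxcl12 was lower without overlap. The part of these markers was not tested either. The 8 lymphocyte markers summed to 9.16 to 9.64 FPKM in Ctrl and 8.85 to 10.5 FPKM in ZA, mostly Cd4, and the 7 dendritic cell markers to 0.675 to 0.889 FPKM and 0.709 to 0.959 FPKM. The 10 neutrophil and progenitor markers are given beside the resorption genes.

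The 10 genes spanned the range from abundant to absent transcripts. In Ctrl BMDMs the mean FPKM was 149.3 ± 6.14 for Atp6v0d2, 28.0 ± 1.78 for Ctsk, 15.9 ± 1.72 for Acp5, 12.99 ± 0.965 for Itgb3, 10.05 ± 0.319 for Tnfrsf11a and 9.62 ± 0.286 for Nfatc1 (mean ± SD, n = 3). Mmp9 followed at 1.06 ± 0.273 and Dcstamp at 0.226 ± 0.0835 (mean ± SD, n = 3), whereas Ocstamp and Calcr did not exceed 3 fragments in any library. Atp6v0d2 was the gene with rank 378 of all genes by mean FPKM in Ctrl, and Tnfrsf11a and Nfatc1 had ranks 4566 and 4707. Neighbors in this order had separate ranges in Ctrl down to Dcstamp, except for Tnfrsf11a and Nfatc1. The lowest Acp5 value (14.13 FPKM) lay just above the highest Itgb3 value (14.10 FPKM). In ZA BMDMs the ranges of Itgb3 and Nfatc1 and those of Nfatc1 and Tnfrsf11a overlapped, and no other neighbors did among the genes above 3 fragments. The resorption machinery was thus represented unevenly in these macrophages, with transcripts of the proton pump subunit, the cathepsin and the phosphatase present and those of the fusion proteins and the calcitonin receptor at or near 0.

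**Figure D1:**
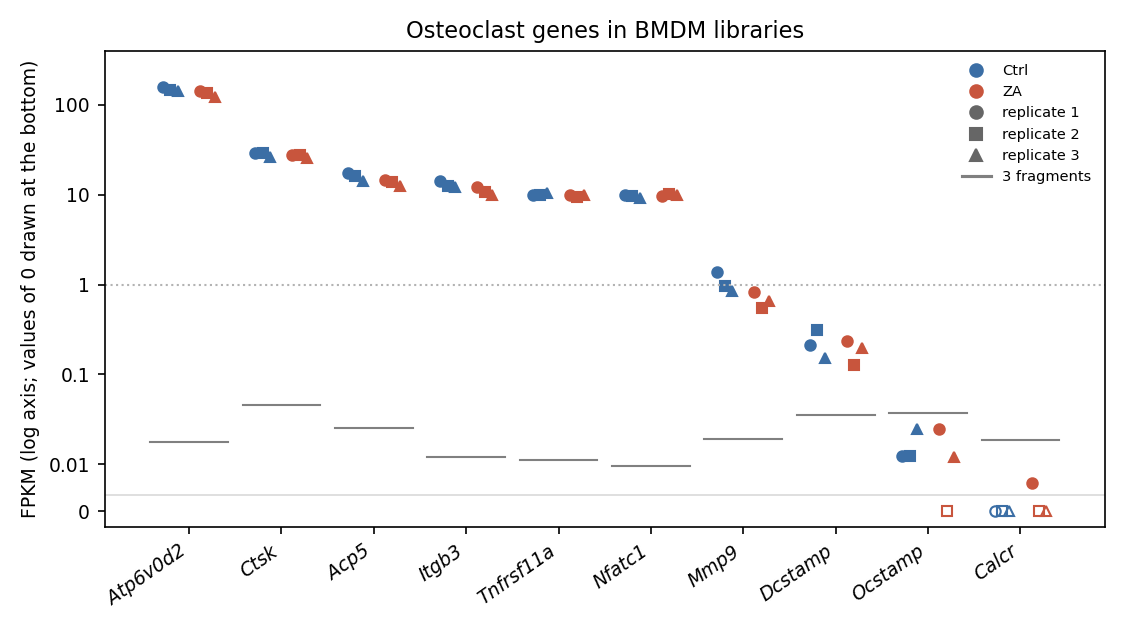
FPKM of the 10 osteoclast genes (log axis) in each of the 3 Ctrl and 3 ZA libraries, with marker shape giving the replicate number, values of 0 drawn open below the light line, and short gray lines at 3 fragments. Levels fall from 122.4 FPKM or more for Atp6v0d2 to 0 or 1 fragment for Calcr, and the dotted line marks the mean of 1 FPKM needed for the test.

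To ask which of these genes differed after ZA, log2(FPKM + 1) was compared with limma over the 9800 genes with a mean of at least 1 FPKM, and p-values were adjusted by Benjamini-Hochberg over all of them. The added 1 understates the change of genes with low FPKM. Of the 10 genes, 6 passed this limit, namely Atp6v0d2, Ctsk, Acp5, Itgb3, Tnfrsf11a and Nfatc1, and Mmp9, Dcstamp, Ocstamp and Calcr did not. No tested osteoclast gene (0 of 6) had an adjusted p-value under 0.05, a threshold passed by 0.367% of all genes tested, 0.204% higher and 0.163% lower in ZA. The count of 36 genes became 1 without Ctrl replicate 1 or Ctrl replicate 2 and 6 without Ctrl replicate 3. It was 25 without ZA replicate 1, 0 without ZA replicate 2 and 4 without ZA replicate 3. At an unadjusted p-value under 0.05 from limma, 3 of the 6 genes were lower in ZA (Atp6v0d2, Itgb3 and Acp5) and 0 were higher, where 4.85% of all genes tested were lower and 7.5% higher, 12.3% in all. Without Ctrl replicate 1 or without ZA replicate 3, Itgb3 and Acp5 no longer passed this unadjusted threshold and 1 gene, Atp6v0d2, did. Without Ctrl replicate 2 Acp5 did not pass, and without Ctrl replicate 3 Ctsk passed as well. A log2 fold change below 0 was found for 5 of the 6 genes and for 43.1% of all genes tested. On the log2 scale the 6 genes had a median difference of -0.11, beside 0.010 for all genes tested, and it was -0.12 with each library centered on its median. A lower level in bulk RNA can come from fewer cells of a type or from less RNA per cell, and these cannot be told apart here.

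**Figure D2:**
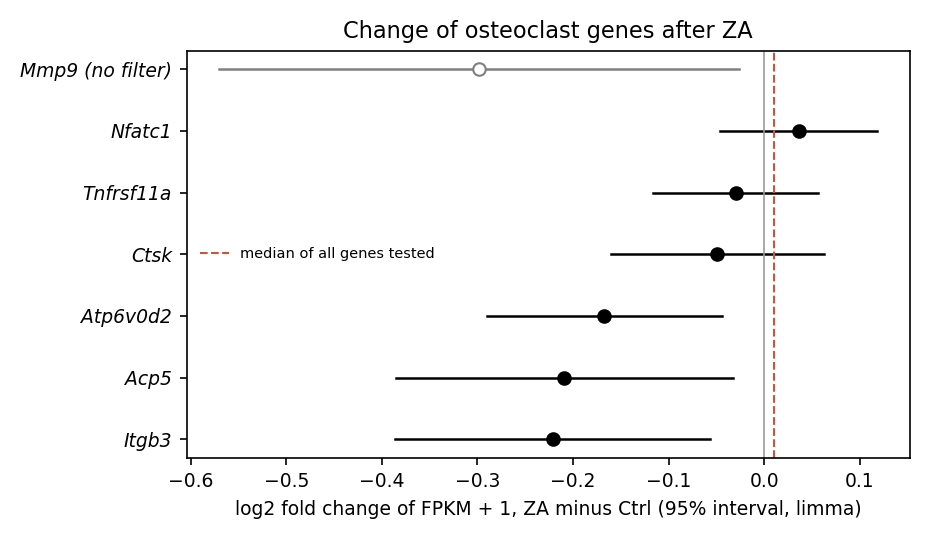
Log2 fold changes of FPKM + 1 from Ctrl to ZA (points) with 95% intervals from limma for the 6 osteoclast genes tested (black) and, from the comparison without a filter on low values, Mmp9 (gray, open); the dashed line is the median of all genes tested. The intervals of Atp6v0d2, Acp5, Itgb3 and Mmp9 lie below 0 before adjustment for the number of genes, and those of Ctsk, Tnfrsf11a and Nfatc1 include it.

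The receptor and the transcription factor at the head of RANK signaling were detected and differed little between the groups. Tnfrsf11a encodes RANK, and its level was 9.92, 9.81 and 10.4 FPKM in the libraries Ctrl 1 to 3 and 10.02, 9.47 and 9.98 FPKM in the libraries ZA 1 to 3, from 2556 to 2823 fragments a library. The groups overlapped, with the highest value in a Ctrl library and the lowest in a ZA library. Its log2 fold change was -0.030 with a 95% interval of -0.12 to 0.056 (adjusted p = 0.791, limma). Nfatc1 was at 9.81, 9.76 and 9.29 FPKM in Ctrl and at 9.63, 10.1 and 9.92 FPKM in ZA. These values also overlapped, and Nfatc1 was the tested gene of the set whose mean was higher in ZA. Its log2 fold change was 0.036 with an interval of -0.046 to 0.12 (adjusted p = 0.725, limma). Both intervals lay between -0.12 and 0.12. On leaving out a library the log2 fold change ran from -0.045 to -0.0059 for Tnfrsf11a and from 0.014 to 0.053 for Nfatc1. Calcr encodes the calcitonin receptor, a marker of the late osteoclast. It had 0 fragments in every Ctrl library and in ZA 2 and ZA 3, and 1 fragment in ZA 1, so that its level was below 0.0186 FPKM, the value of 3 fragments.

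Itgb3, the β3 chain that pairs with αv in the receptor by which osteoclasts hold on to bone, was lower in every ZA library than in any Ctrl library. Its level was 14.1, 12.6 and 12.3 FPKM in the Ctrl libraries and 12.2, 10.8 and 10.04 FPKM in the ZA libraries. The groups did not overlap, although ZA 1 lay close under Ctrl 3. The mean was 12.99 ± 0.965 in Ctrl and 11.02 ± 1.10 in ZA (mean ± SD, n = 3), a difference of -15.2%. The log2 fold change was -0.22 with a standard error of 0.072 and an interval of -0.39 to -0.057 (adjusted p = 0.269, limma). Of the 6 genes tested, 2 had groups that did not overlap with lower values in ZA, Itgb3 and Atp6v0d2, and 0 had higher ones, where 6.76% of all genes tested were lower and 11.4% higher without overlap. Over the 6 comparisons that left out a library its log2 fold change was between -0.29 and -0.16.

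Itgav, the αv chain of the same receptor, was also without overlap, at 15.4 ± 0.419 FPKM in Ctrl and 13.97 ± 0.494 FPKM in ZA (mean ± SD, n = 3). Its log2 fold change was -0.13 (adjusted p = 0.203, limma). Itgb5, another β chain that pairs with αv and is abundant in macrophages, was at 121.7 ± 3.14 FPKM in Ctrl and 121.9 ± 3.20 FPKM in ZA (mean ± SD, n = 3), a log2 fold change of 0.0016 that was -0.011 with each library centered on its median and -0.0090 after quantile normalization. The log2 ratio of Itgb3 to Itgb5 within a library was -3.15, -3.26 and -3.28 in the Ctrl libraries and -3.36, -3.48 and -3.57 in the ZA libraries. All ZA ratios lay below all Ctrl ratios, by -0.24 in the mean (exact permutation test, two-sided p = 0.1, the smallest that 3 libraries against 3 allow). As Itgb5 was nearly level, this ratio mostly restates the difference of Itgb3 and is not separate evidence.

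The genes of cell fusion were split between one abundant gene and a pair of scarce ones. Atp6v0d2 encodes the d2 form of a vacuolar ATPase subunit, which is enriched in osteoclasts and takes part in precursor fusion. It was at 156.0, 148.0 and 143.9 FPKM in Ctrl and at 142.3, 134.4 and 122.4 FPKM in ZA, from 20998 to 26452 fragments a library. The groups did not overlap, with Ctrl 3 next to ZA 1 and the lowest value in ZA 3. The mean was 149.3 ± 6.14 in Ctrl and 133.1 ± 10.01 in ZA (mean ± SD, n = 3), a difference of -10.9%. The log2 fold change was -0.17 with a standard error of 0.053 and an interval of -0.29 to -0.044 (adjusted p = 0.265, limma). Without ZA replicate 3 it was -0.11.

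The widely expressed form of the same subunit, Atp6v0d1, was at 158.2 ± 0.781 FPKM in Ctrl and 157.7 ± 4.94 FPKM in ZA (mean ± SD, n = 3), a log2 fold change of -0.0052 that was 0.020 without ZA replicate 2. The d2 form thus stood at nearly the level of the d1 form in untreated macrophages. Its log2 ratio to Atp6v0d1 was -0.012, -0.098 and -0.14 in the Ctrl libraries and -0.18, -0.18 and -0.38 in the ZA libraries. The ratio was lower in each ZA library than in each Ctrl library, by -0.16 in the mean (exact permutation test, two-sided p = 0.1, the smallest possible). Without ZA replicate 3, the library with the lowest ratio, the difference was -0.096. As Atp6v0d1 was nearly level, this ratio too mostly restates the difference of Atp6v0d2.

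**Figure D3:**
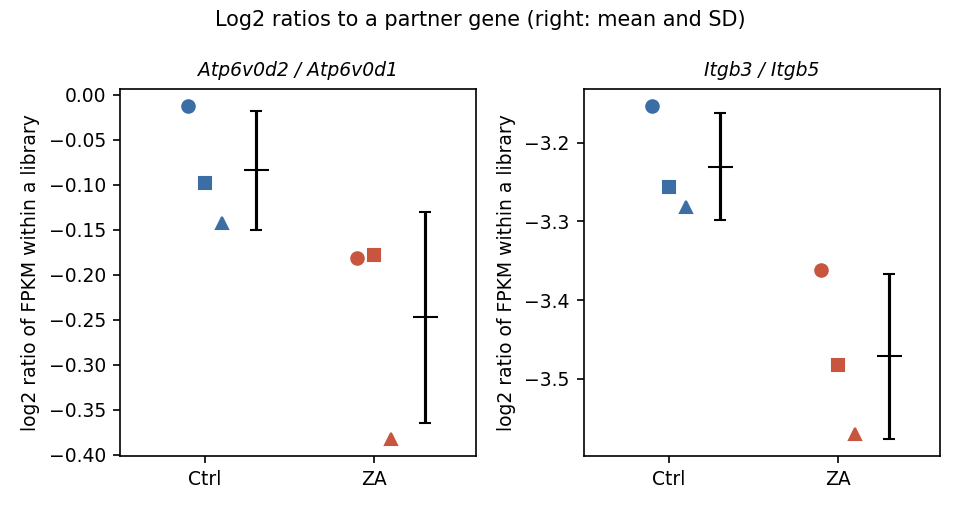
Log2 ratios of FPKM within each library for Atp6v0d2 over Atp6v0d1 (left) and Itgb3 over Itgb5 (right) in Ctrl (blue) and ZA (red), with marker shape giving the replicate number and black bars the mean and SD of 3 libraries. Mean ratios are -0.084 in Ctrl and -0.25 in ZA for the first pair, and -3.23 and -3.47 for the second.

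Dcstamp and Ocstamp encode the membrane proteins DC-STAMP and OC-STAMP, which are needed for fusion of precursors. Dcstamp had 18, 27 and 13 fragments in Ctrl and 20, 11 and 17 fragments in ZA, or 0.210, 0.316 and 0.152 FPKM against 0.236, 0.129 and 0.196 FPKM. The groups overlapped, and with so few fragments only a large difference could have been seen: fitted to the fragments with limma's voom, the log2 fold change was -0.24 with an interval of -1.12 to 0.63. Ocstamp had 1, 1 and 2 fragments in Ctrl and 2, 0 and 1 fragments in ZA, all under the floor of 3 fragments, and no fold change is given.

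Of the resorption enzymes, Acp5 and Mmp9 were lower on average after ZA and Ctsk was nearly level. Acp5 encodes tartrate-resistant acid phosphatase (TRAP), the enzyme stained to recognize osteoclasts. It was at 17.6, 16.1 and 14.1 FPKM in Ctrl and at 14.5, 13.8 and 12.6 FPKM in ZA. The groups overlapped because Ctrl 3 lay below ZA 1. The mean was 15.9 ± 1.72 in Ctrl and 13.6 ± 0.979 in ZA (mean ± SD, n = 3), a difference of -14.5%. The log2 fold change was -0.21 with a standard error of 0.077 and an interval of -0.39 to -0.033 (adjusted p = 0.332, limma). It was -0.14 without Ctrl replicate 1, -0.16 without ZA replicate 3 and -0.29 without Ctrl replicate 3.

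Ctsk encodes cathepsin K, the protease that cleaves bone collagen in the acid space. It was at 29.1, 29.1 and 26.0 FPKM in Ctrl and at 27.7, 27.6 and 25.9 FPKM in ZA. The groups overlapped, and Ctrl 3 and ZA 3 stood at nearly the same level. The log2 fold change was -0.049 with an interval of -0.16 to 0.063 (adjusted p = 0.726, limma), and without Ctrl replicate 3 it was -0.10 (adjusted p = 0.366, limma).

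Mmp9 encodes a gelatinase secreted by osteoclasts and stored in neutrophil granules. It was at 1.37, 0.969 and 0.851 FPKM in Ctrl and at 0.817, 0.545 and 0.656 FPKM in ZA, from 217, 153 and 135 fragments against 128, 86 and 105 fragments. The groups did not overlap, but Ctrl 3 and ZA 1 lay close together. The means differed by -36.8%, more than for any of the 6 genes tested. Over the 6 libraries Mmp9 had a mean of 0.868 FPKM, below the limit of 1 FPKM set for the test. Without the filter the log2 fold change was -0.30 with an interval of -0.57 to -0.026 (adjusted p = 0.520, limma), where 4.07% of 19138 genes were lower at an unadjusted p-value under 0.05. Fitted to the fragments with voom, it was -0.65 with an interval of -1.12 to -0.18 (adjusted p = 0.349). Among the 897 genes with a mean between 0.5 and 1 FPKM, 7.47% had groups that did not overlap with lower values in ZA.

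The neutrophil and progenitor markers were likewise lower on average in ZA. Their summed level was 36.5 to 51.5 FPKM in Ctrl and 32.7 to 37.5 FPKM in ZA. All 7 of the 10 that were tested had a lower mean in ZA, 4 of them without overlap (Elane, Mpo, Ngp and Prtn3), where 43.1% of all genes tested had a log2 fold change below 0 and 6.76% were lower without overlap. Ngp was separated narrowly, with 3.588 FPKM in Ctrl 3 and 3.583 FPKM in ZA 2. The progenitor marker Kit was nearly level, at a log2 fold change of -0.019. Ly6g, which defines mature neutrophils, did not exceed 3 fragments in any library. The most abundant were S100a9, at 17.9 ± 4.90 FPKM in Ctrl and 14.9 ± 1.67 FPKM in ZA, S100a8, at 10.5 ± 1.77 and 8.78 ± 0.730 FPKM, and Ngp, at 4.47 ± 0.916 and 3.49 ± 0.149 FPKM (mean ± SD, n = 3). Their part in the values of Mmp9, Acp5, Itgb3 and Atp6v0d2 was not tested.

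The promoters of the osteoclast genes carry sites for factors that act in osteoclast formation. Among these are NFATc1, AP-1, PU.1 and the MITF and TFE family, which acts at the promoters of Acp5 and Ctsk. Promoters of 4 of the 10 genes (Acp5, Calcr, Ctsk and Tnfrsf11a) were in the RefSeq promoter table for build GRCm38.p6, with 7 start sites in all. The 250 bases before a start are shown for Acp5, Ctsk and Tnfrsf11a, each 5′ to 3′ on the strand of the gene, with the motif found in capitals. Acp5 had a lower mean in ZA, and Ctsk and Tnfrsf11a were nearly level. The Acp5 window shown is the one with a motif, and the windows before its other starts held none of the motifs searched. A link between the motif and the level of a gene was not tested.
Acp5, chr9:22130599-22130848, minus strand: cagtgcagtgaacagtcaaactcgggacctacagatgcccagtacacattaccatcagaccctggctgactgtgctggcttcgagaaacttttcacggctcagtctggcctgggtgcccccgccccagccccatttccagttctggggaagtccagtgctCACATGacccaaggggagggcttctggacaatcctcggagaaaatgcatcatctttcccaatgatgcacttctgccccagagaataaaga
Ctsk, chr3:95498960-95499209, plus strand: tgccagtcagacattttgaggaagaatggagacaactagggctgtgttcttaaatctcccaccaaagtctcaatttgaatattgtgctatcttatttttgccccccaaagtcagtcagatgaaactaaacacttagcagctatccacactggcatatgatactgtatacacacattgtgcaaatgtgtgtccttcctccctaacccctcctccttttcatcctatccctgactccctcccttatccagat
Tnfrsf11a, chr1:105780473-105780722, plus strand: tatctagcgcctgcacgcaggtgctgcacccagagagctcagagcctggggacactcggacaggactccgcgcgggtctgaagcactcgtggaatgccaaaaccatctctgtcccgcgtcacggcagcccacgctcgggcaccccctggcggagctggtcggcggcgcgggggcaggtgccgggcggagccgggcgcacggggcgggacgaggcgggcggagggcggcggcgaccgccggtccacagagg
Searched on both strands, the E-box CATGTG was found once, as its reverse complement 90 bases before this start of Acp5. This motif is in 12.3% of 32851 promoters of the same length. The letters TGANTCA for AP-1 (6.75% of promoters), GAGGAAGT for PU.1 (2.44%), CACGTG for another E-box (6.02%) and TGGAAAA for NFAT (5.93%) were not in any of the 7 windows. CACGTG and TGANTCA read the same on both strands, and none of these motifs contains another. A match of letters describes the sequence and shows no binding, and windows of this length leave out distal sites.

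The genes around the osteoclast genes were compared by function, from lists that do not contain the 10 genes. In the list of RANK signaling and transcription factors, 26 of 31 genes were tested, and 0 had an adjusted p-value under 0.05. At an unadjusted p-value under 0.05, 4 were higher in ZA and 1 was lower, where 7.5% of all genes tested were higher and 4.85% lower. Without overlap 6 were higher and 2 lower, where 11.4% of all genes tested were higher and 6.76% lower. The median log2 fold change of the list was 0.013. Mapk14, the p38α kinase, was at 46.4 ± 0.667 FPKM in Ctrl and 50.6 ± 1.08 FPKM in ZA, Nfkb1, the p105 and p50 subunit of NF-κB, at 34.1 ± 0.246 and 36.2 ± 1.36 FPKM, and Fos, the AP-1 subunit needed to form osteoclasts, at 22.3 ± 0.638 and 20.8 ± 0.341 FPKM (mean ± SD, n = 3). None of the 3 overlapped between the groups, with log2 fold changes of 0.12, 0.084 and -0.099 and adjusted p-values of 0.110, 0.341 and 0.257 from limma. These 3 were picked for the largest moderated statistics of the list, which favors groups without overlap. Tnfsf11, which encodes RANKL itself, had between 0 and 5 fragments a library. Csf1r, the M-CSF receptor, was higher in ZA at 834.9 ± 11.9 FPKM than in Ctrl at 772.2 ± 4.93 FPKM (mean ± SD, n = 3) without overlap, but not past the threshold (log2 fold change 0.11, adjusted p = 0.0701, limma). Fitted to the fragments with voom, Csf1r passed (adjusted p = 0.00878), as did Mapk14 (adjusted p = 0.0415).

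Genes of co-stimulation and inhibition lay on both sides of 0. Of the 12 genes listed for immunoreceptor co-stimulation, 10 were tested, with 5 higher and 5 lower and a median log2 fold change of 0.0030. At an unadjusted p-value under 0.05 from limma, 2 were higher, Plcg2 and the inhibitory Pirb, and 0 were lower. Of all genes tested 7.5% were higher and 4.85% lower at this threshold. After adjustment 0 passed 0.05. Plcg2, the phospholipase that feeds calcium signals to NFATc1, had a log2 fold change of 0.095 (adjusted p = 0.304, limma), Pirb, an inhibitory receptor, one of 0.083 (adjusted p = 0.369, limma) and the kinase Syk one of 0.026 (adjusted p = 0.722, limma). Of the 12 genes grouped here as inhibitors of osteoclast differentiation, 8 were tested. Of these, 0 passed even an unadjusted p-value of 0.05 in limma, where 12.3% of all genes tested did. Cebpa is not clearly an inhibitor, so the counts and the median of this group give no direction for inhibition. Their median log2 fold change was 0.018, and those with the largest moderated statistics were Bcl6 at 0.055, Cebpa at -0.047 and Id2 at -0.055. On leaving out a library Cebpa ran from -0.075 to -0.017 and Id2 from -0.085 to -0.022, and of the co-stimulation genes Pirb ran from 0.050 to 0.11 and Syk from 0.012 to 0.044.

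In the lists of fusion, adhesion and resorption, lower values in ZA outnumbered higher ones at an unadjusted p-value under 0.05. In the list of cell fusion and adhesion 24 of 26 genes were tested, of which 1 was higher and 7 were lower at an unadjusted p-value under 0.05 and 0 passed after adjustment, and 2 were higher and 8 lower without overlap. Of all genes tested 7.5% were higher and 4.85% lower at this unadjusted threshold, and 11.4% were higher and 6.76% lower without overlap, shares that also apply to the resorption list. The median of the list was -0.0083 on the log2 scale. Vcl, which encodes the focal adhesion protein vinculin, was at 12.7 ± 0.760 FPKM in Ctrl and 10.3 ± 0.594 FPKM in ZA (mean ± SD, n = 3), a log2 fold change of -0.28 (adjusted p = 0.0854, limma, and 0.0114 with voom). Adam8, a membrane metalloproteinase that takes part in osteoclast fusion, was at 134.2 ± 2.94 and 120.9 ± 7.07 FPKM (mean ± SD, n = 3), a log2 fold change of -0.15 (adjusted p = 0.203, limma), also without overlap. In the list of acid secretion and matrix resorption 21 of 22 genes were tested, with 0 higher and 5 lower at an unadjusted p-value under 0.05, 0 after adjustment, 1 higher and 6 lower without overlap and a median of -0.020. Atp6v1b2, a subunit of the ATP-hydrolyzing part of the proton pump, was at 321.5 ± 3.10 FPKM in Ctrl and 296.3 ± 5.78 FPKM in ZA (mean ± SD, n = 3), a log2 fold change of -0.12 (adjusted p = 0.0827, limma, and 0.0198 with voom). Mmp13, a collagenase, was at 5.46 ± 1.25 and 3.68 ± 0.496 FPKM (mean ± SD, n = 3) with a log2 fold change of -0.45 (adjusted p = 0.241, limma), and Ctsb, the lysosomal cathepsin B, had one of -0.052 (adjusted p = 0.301, limma). Without a filter the adjusted p of Ctsb was 0.773 with limma and 0.00369 with voom, a setting added after the data had been seen. Car2, the carbonic anhydrase that supplies protons in osteoclasts, stood at 0.206 ± 0.0804 FPKM in Ctrl and 0.169 ± 0.0322 FPKM in ZA (mean ± SD, n = 3). Whether any of the lists differed from the other genes was not tested.

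**Figure D4:**
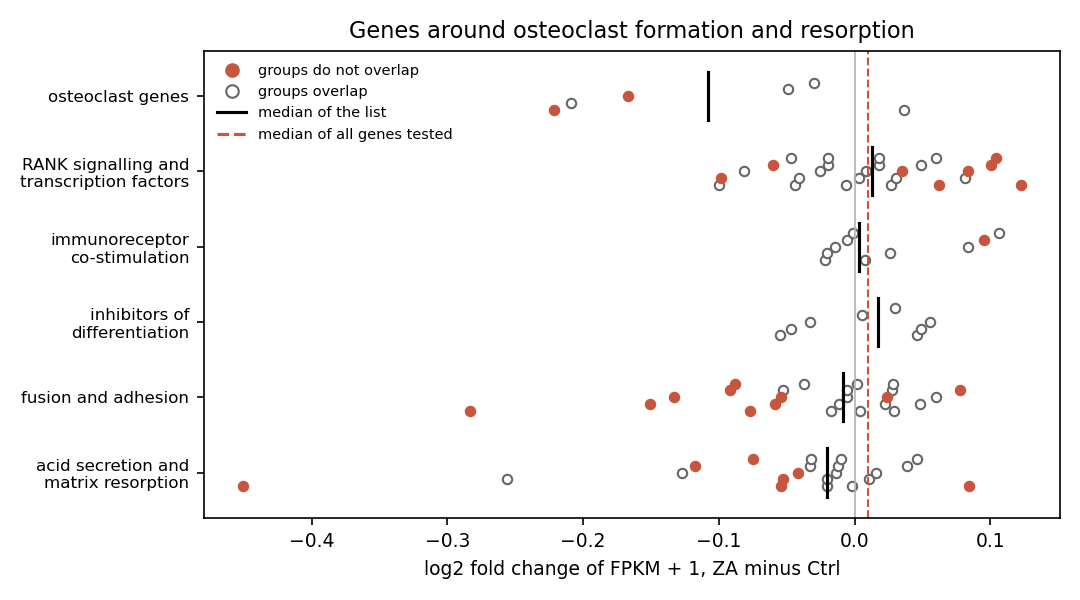
Log2 fold changes of FPKM + 1 from Ctrl to ZA for the tested osteoclast genes and the tested genes of 5 lists around them (points, spread vertically for visibility), red where the Ctrl and ZA libraries do not overlap, with the median of each list (black) and of all genes tested (dashed). The medians are -0.11 for the osteoclast genes and between -0.020 and 0.018 for the 5 lists.

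Among the libraries the tested genes did not vary alike. The standardized log2(FPKM + 1) of Acp5 over the 6 libraries lay closest to the mean profile of the 6 tested genes, at a root mean square distance of 0.0824 SD, followed by Itgb3 at 0.281, Atp6v0d2 at 0.290 and Ctsk at 0.494. Tnfrsf11a at 1.30 and Nfatc1 at 1.38 lay far from it. Of the tested genes outside the set, the profiles of Bmp1 (0.104), Gpc1 (0.126), Aldh1a2 (0.134), Ccl6 (0.141) and Ptafr (0.152) were the closest over the 6 libraries. The groups of all 5 overlapped, as those of Acp5 did. The 6 tested genes themselves make up the mean profile, which favors short distances for them, whereas the genes outside the set did not enter it. These distances describe 6 points that share their library totals and their grouping.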

How the data were processed

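RNA sequencing covered 3 Ctrl and 3 ZA libraries of BMDMs, mapped to groups and replicate numbers by their titles. Per the labels, libraries were made with a VAHTS kit, with a SMARTER kit also named, and read as 150 bp pairs. The aligner, the counting program and the annotation are not given in the sources used here, and the submitters' processing notes name the build mm9. The authors deposited FPKM values, and in the deposited table the symbol and the 6 values of a gene run together. Of 35434 rows, 11 held all separators. The rest were divided by the format of each number (22553 rows with a single cut) or by the rule that FPKM is a whole number of fragments scaled by length and library total (12639 rows), and 242 rows were left out. All 11 intact rows were recovered identically, and of 2000 simulated rows 1993 were exact, 7 were left out and 0 were wrong. Recovered fragments are estimated counts.

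log2(FPKM + 1) was compared with limma 3.58.1 in R 4.3.3 (lmFit, eBayes with a trend, two-sided, Benjamini-Hochberg) over the genes that reached a mean of 1 FPKM, and the comparison was tested on simulated data. Ratios were compared by exact permutation with SciPy 1.17.1 in Python 3.11.15. Named were all 10 osteoclast genes, the 3 genes of each pathway list with the largest moderated statistic, the 3 most abundant markers of each cell type (printed for stromal cells and neutrophils), fixed partners and the 5 closest profiles. Other genes named for their values (Car2, Elane, Mpo, Prtn3, Kit, Adgre1, Cd14, Bglap, Ibsp and Ly6g) were chosen after their values were seen. The osteoclast genes and the lists were chosen with earlier results of these data known. Alternatives were a pseudocount of 0.1, no filter or one of 5 FPKM, centering, quantile normalization, no trend, a replicate block, voom on the recovered fragments and leaving out each library. After the data had been seen, voom and the block without a filter were added.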

Additional observations from a re-analysis of the deposited data

How the results depend on the processing

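Each of the 6 tested osteoclast genes kept its direction under all 16 alternatives, and 95 of the 96 values stayed on their side of an adjusted p-value of 0.05. The exception was Itgb3 with the replicate number as a block, at an adjusted p of 0.0481 from limma, so that 1 member was called, while Atp6v0d2 and Acp5 were at 0.0507 and 0.0508. The labels do not say whether the numbers pair the libraries. Over all genes tested the deviations of same-numbered libraries correlated at 0.284 for replicate 1, 0.0393 for replicate 2 and 0.280 for replicate 3. These values do not settle whether the libraries are paired. Within both groups Itgb3, Atp6v0d2 and Acp5 each fell from replicate 1 to 2 and from 2 to 3. Ctsk, Tnfrsf11a and Nfatc1 did not show this order in both groups. The order was not particular to osteoclast genes. The stromal markers Col1a2, Col1a1 and Cxcl12 fell likewise, Col1a2 from 9.93 to 7.70 and 5.18 FPKM in Ctrl and from 7.72 to 6.36 and 4.77 FPKM in ZA. S100a9, S100a8 and Ngp did not fall throughout in both groups, and the macrophage marker Lyz2 rose in both. What the order reflects was not tested. With the block but no filter, 0 members passed, and Itgb3 was at an adjusted p of 0.363. Over the 16 alternatives the adjusted p ran from 0.0481 to 0.518 for Itgb3, from 0.0507 to 0.518 for Atp6v0d2 and from 0.0508 to 0.580 for Acp5.

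The number of all genes called, 36, was 78 with the block, 132 with voom, 20 after quantile normalization, 1 without a filter, 1 without a trend in the variance, 76 with voom without a filter and 0 with the block without a filter. It was between 0 and 25 when single libraries were left out. The causes were not tested. Over all 10 members, where 4 scarce genes enter, the median log2 fold change was -0.20 with voom and no filter and -0.047 with limma and no filter. Named genes that were not called and passed under an alternative, besides Itgb3, were Vcl (adjusted p 0.0268 with the block, 0.0114 with voom and 0.0274 with voom and no filter), Ccl6 (0.0454 with the block), Mapk14 (0.0415 with voom), Csf1r (0.00878 with voom and 0.00204 without a filter), Atp6v1b2 (0.0198 and 0.0150 likewise) and Ctsb (0.00369 with voom and no filter), all from limma. The macrophage marker Adgre1 also passed with voom and no filter (adjusted p 0.00658, limma), beside 0.0785 in the main comparison. Among other named genes near 0, the sign turned for Itgb5 with centering (-0.011), quantile normalization (-0.0090) and on leaving out a library (-0.019 to 0.023), for Lyz2 (-0.036 to 0.091), Col1a1 (-0.39 to 0.038), Cd4 (-0.049 to 0.062) and Atp6v0d1 (-0.022 to 0.020) on leaving out a library. Mmp9, Dcstamp, Ocstamp and Calcr have log2 fold changes only where no filter was used, so that none was computed for them on leaving out a library. Depth limits Dcstamp, Ocstamp and Calcr, which had at most 27 fragments a library.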
